A study of Mus musculus with 26 samples.

Results

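The transcriptome of leukaemic stem and progenitor cells with intact Spred1 was described from 10 of the 26 RNA-seq libraries of the series. The 10 libraries are those titled as LSK cells of Spred1 wt CML mice (5 libraries) and of HSC-Spred1 wt CML mice (5 libraries), pooled by their titles and by no measured value. LSK cells are sorted from bone marrow for c-Kit and Sca-1 on their surface and for the absence of antigens of mature lineages. All mice were of C57BL/6 background and are labelled as CML mice. For HSC wt the labels give the genotype SCLtTA/BCR-ABL, a model of chronic myeloid leukaemia in which a tetracycline-controlled transactivator under the Scl enhancer drives the BCR-ABL oncogene in stem and progenitor cells, whereas for Spred1 wt they give no transgene. HSC wt mice (Spred1HSCwt/wt) received 7 intraperitoneal doses of 250 μg poly(I:C) at intervals of 2 days, the treatment that activates Mx1-cre in their knockout counterparts. Poly(I:C) treatment of the Spred1 wt mice, and the age and sex of all mice, are not given in the sources used here. Each library is labelled as a separate sample of its group, and the protocol counts 5 mice per HSC group, so that the spread reported below is a spread between libraries of different animals at least in HSC wt.

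The LSK compartment holds the haematopoietic stem cells and the multipotent progenitors from which all blood lineages arise. It is defined by the stem cell factor receptor c-Kit (gene Kit) and the surface antigen Sca-1 (gene Ly6a), and in chronic myeloid leukaemia it holds the cells that maintain the disease. BCR-ABL signals through adaptor proteins to RAS and the MAP kinases, through PI3K and AKT, and through STAT5, and SPRED1 is a membrane-bound inhibitor of RAS activation.

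The libraries held 14816071 to 26714325 reads counted to genes, and 3 reads correspond to 0.198 counts per 1000000 counted reads (CPM) in the shallowest library and to 0.114 CPM in the deepest. CPM below are scaled by the TMM method, with factors from 0.96 to 1.04, and levels of different genes are compared as CPM per kilobase (kb) of the gene length in the deposited table, while an order by CPM is an order by reads. The biological coefficient of variation (CV) is the SD over the mean of the 10 libraries after the part due to counting is removed. It was read for the 10514 genes with a mean of at least 5 CPM. Its median over these genes was 0.0991, and 186 of them (1.77%) had a biological CV of 0.5 or more, which is the background for every count of variable genes below. A library that stood apart was Spred1 wt 3, which was the highest library for 73 of the 186 variable genes and for the summed level of 18 of the 52 gene lists examined. Without it, the median biological CV was 0.089 and 149 genes had a CV of 0.5 or more. HSC wt 4 and 5 held Xist, the transcript of the inactive X chromosome of female cells, at 3243 and 3141 CPM and no read of the Y-linked Ddx3y, whereas the other 8 libraries held Ddx3y at 85.3 to 118 CPM. Both patterns of sex-linked transcripts are pooled below.

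Spred1 itself was read in every library. Its level was 93.3, 106, 149, 110.3 and 117 CPM in Spred1 wt 1 to 5 and 97.4, 110.4, 107, 108 and 101 CPM in HSC wt 1 to 5. Spred1 wt 3 stood above the rest, and the other 9 libraries lay within 93.3 to 117 CPM. The biological CV of Spred1 was 0.138, and 0.0641 without Spred1 wt 3. At 15.5 CPM per kb Spred1 was above its paralogues Spred2 (11.3 CPM per kb, 9.45 to 13.2) and Spred3 (3.92 CPM per kb, 2.58 to 5.9). The highest Spred2 value just overlapped the lowest Spred1 value (13.2 CPM per kb).

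The sort antigens were present in all 10 libraries. Kit was measured at 761 CPM at the lowest, 924 at the median and 1245 at the highest, or 172 CPM per kb on average, and Ly6a at 41.2, 62.9 and 84.6 CPM, or 61 CPM per kb. Kit was lowest in Spred1 wt 4 and highest in Spred1 wt 3. Of 15 lineage antigens, 3 reached 1 CPM in all 10 libraries and none was at 0 in all of them. The highest was Itgam, the integrin chain CD11b of myeloid cells, at 42.9, 73.7 and 104 CPM (lowest, median and highest), which is 11.5 CPM per kb. Itgax (CD11c) had 1.37, Klrb1c (NK1.1) 1.33, Cd79a 2.12, Ly6g 1.08 and Cd4 0.757 CPM per kb on average. Others were lower still on the per-kb scale, with Cd3g at 0.275, Cd5 at 0.249, Ncr1 at 0.248, Cd3e at 0.11, Cd3d at 0.0752, Cd8a at 0.0636 and Ms4a1 at 0.0432 CPM per kb.

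**Figure D1:**
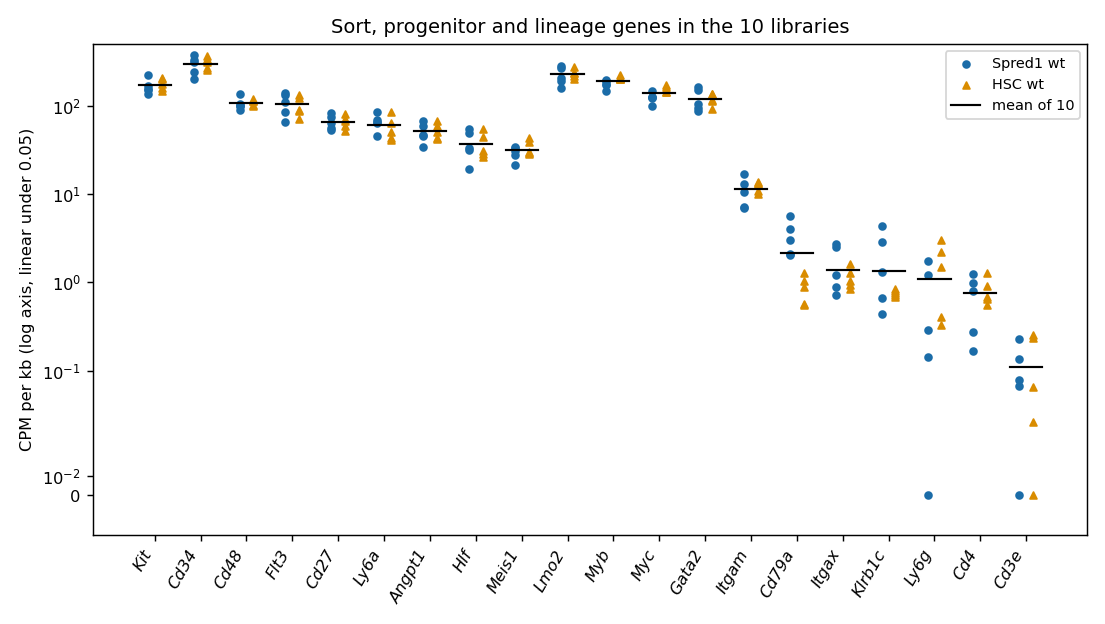
Level (CPM per kb, log axis that is linear under 0.05) of sort antigens, progenitor genes, transcription factors and lineage antigens in each Spred1 wt (circles) and HSC wt (triangles) library, with the mean of the 10 as a bar. Kit averaged 172 and Ly6a 61 CPM per kb, and the lineage antigens other than Itgam lay under 6 CPM per kb in every library.

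Among the 24091 genes of the table, 11508 (47.8%) had at least 1 CPM in all 10 libraries, 12974 had it in at least 1 library, and 6145 had no read in any of the 10. Reads were spread over many genes. The 10 genes of highest mean held 3.34% to 4.09% of the reads of a library, the 100 highest 13.7% to 15.4%, and 1171 genes held 50% of all reads. The most-read gene was Eef1a1, the translation elongation factor that delivers aminoacyl-tRNA to the ribosome, at 9370 to 11360 CPM. Mpo, the myeloperoxidase of granulocyte precursors, came next with 2833 CPM at the lowest, 4645 at the median and 7980 at the highest. The 30 genes with most reads included 7 translation factors of the list used, Eef1a1 among them, 7 ribosomal protein genes, the chaperones Hsp90ab1 (3685 CPM), Hspa8 (2127 CPM) and Calr (2042 CPM), the nuclear RNA Malat1 (2455 CPM) and the mast cell protease genes Cpa3 (2165 CPM) and Tpsb2 (1646 CPM). On the per-kb scale the order changed: 11 genes were in both lists of 30, and 21 of the 30 highest per kb were ribosomal protein genes. Eef1a1 led this list too (5521 CPM per kb), and Mpo (1928), Tpsb2 (1522) and Cpa3 (1501 CPM per kb) remained in it. Mir6236, a short annotated microRNA gene, followed Eef1a1 at 2800 CPM per kb.

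Of the 52 lists, ribosomal protein genes had the lowest median spread. The 86 ribosomal protein genes together took 6.5% of all CPM, and the 80 members with a mean of 5 CPM or more had a median biological CV of 0.0643, against 0.0991 for all genes. None of the 80 had a CV of 0.5 or more. The 36 translation factors had a median CV of 0.101. Rpl32 had 917 CPM at the lowest, 1002 at the median and 1240 at the highest, and Rpl28 had 849, 905 and 1177 CPM. Both peaked in Spred1 wt 3. In that library 78 of the 80 members lay above their own mean over the 10 libraries, and the summed level was 74290 CPM against 62040 to 67590 CPM in the other 9. Without Spred1 wt 3 the median CV of the list was 0.0442. The most variable member was Rps4l (0.313), which had 3.49 and 5.14 CPM in Spred1 wt 5 and 4 and 10.4 to 14.2 CPM elsewhere. Rpl26 had no read in any of the 10 libraries, and ribosomal protein genes have many near-identical copies, so counts of single members are uncertain.

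Transcripts of ribosomal proteins characteristically start with a C followed by a run of pyrimidines, the terminal oligopyrimidine tract through which mTOR signalling controls their translation. RefSeq start windows (build GRCm38.p6) were matched for 64 of the 86 genes, and 14 of these (21.9%) had an annotated start at a C followed by at least 4 letters that are each C or T, against 3.01% of all 27025 genes with a window. These 5 are examples from the 14 matching genes and not a full ranking of them by level. They are shown because 78 of 80 members of the family lay above their own mean in Spred1 wt 3. Members were divided in some other libraries, with 42 above and 38 below in Spred1 wt 2. Each window runs from 40 bases before the start to 20 bases from it, with the tract in capitals.
Rpl28 (chr7:4792925-4792984, plus strand): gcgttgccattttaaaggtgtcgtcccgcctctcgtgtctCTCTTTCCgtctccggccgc
Rps18 (chr17:33955646-33955705, minus strand): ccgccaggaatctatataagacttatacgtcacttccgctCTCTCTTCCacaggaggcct
Rplp2 (chr7:141447611-141447670, plus strand): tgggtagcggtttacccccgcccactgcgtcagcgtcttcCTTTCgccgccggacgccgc
Rps27 (chr3:90213629-90213688, minus strand): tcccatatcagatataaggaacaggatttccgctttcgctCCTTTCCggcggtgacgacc
Rpl35 (chr2:39005112-39005171, minus strand): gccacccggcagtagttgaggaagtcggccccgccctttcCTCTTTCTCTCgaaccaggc
The tract length in these windows ranged from 5 bases in Rplp2 to 11 in Rpl35. A start annotated a few bases away hides the tract, so the share counts annotations and not transcripts.

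Most signalling and cell cycle lists had a median spread near that of all genes (0.0991). The 42 BCR-ABL adaptors and RAS-MAPK components with 5 CPM or more had a median biological CV of 0.0996, and none reached 0.5. Grb2, the adaptor that links BCR-ABL to RAS, had the highest level of that list at 82.6 CPM per kb (73.3 to 96.3), and other high members were Inpp5d (the phosphatase SHIP1, 74.3), Rasa3 (a RAS GTPase activator, 47.8), Rasgrp2 (46.4) and Mapk3 (ERK1, 41.9 CPM per kb). Rasa3 ranged from 38.9 to 55.6 CPM per kb and Rasgrp2 from 35.9 to 54.1, so that these neighbours overlapped in range. The most variable members were Rasgrp1 (0.443), Rasgrp4 (0.344) and Spred3 (0.276). The 28 PI3K-AKT-mTOR components had a median CV of 0.0857 and the 23 JAK-STAT and feedback genes 0.11. The 11 ERK output and feedback genes varied more, with a median of 0.184 and 1 member at 0.5 or more. In the JAK-STAT list Pim1, a kinase gene induced by STAT5, was the highest at 220.0 CPM per kb (175 to 251), and Cish and Socs2, which encode feedback inhibitors of STAT signalling, were the most variable (0.486 and 0.397), with Cish at 27.6 to 98.2 CPM.

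All 20 S phase genes and all 22 G2 and M phase genes were above 1 CPM in every library, with median CVs of 0.0845 and 0.109. Small as it was, this spread was shared by members in HSC wt. Of the G2 and M phase genes, 0, 0, 20, 21 and 22 of 22 lay above their own mean in HSC wt 1 to 5. For S phase genes the counts were 2, 0, 16, 19 and 20 of 20. In Spred1 wt, 7 to 14 of the G2 and M phase genes lay above. Their sum was lowest in HSC wt 2 (3917 CPM) and highest in HSC wt 5 (5051 CPM). Pcna, the DNA polymerase clamp, was at 229.9 CPM per kb (207 to 260.5), Mcm7, a subunit of the replicative helicase, at 161, Top2a at 168 and the proliferation marker Mki67 at 115 CPM per kb (105 to 124). Cdk4 had 281 CPM per kb (254 to 330.3) and Cdk6 116 (99.1 to 126), with no overlap in range between these partners of the D-type cyclins. Of the cyclin list, Ccnd2 (58.4 CPM per kb) was among the 6 highest members, whereas Ccnd1 had 10 CPM per kb and a higher CV (0.184). In the BCL2 family, Mcl1, an inhibitor of apoptosis, was highest at 117 CPM per kb (87.1 to 137), then the executioner Bak1 at 77.1, Bid at 35.5, Bax at 27.1 and Bcl2 at 21.4 CPM per kb. Hrk had no read in any of the 10 libraries.

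**Figure D2:**
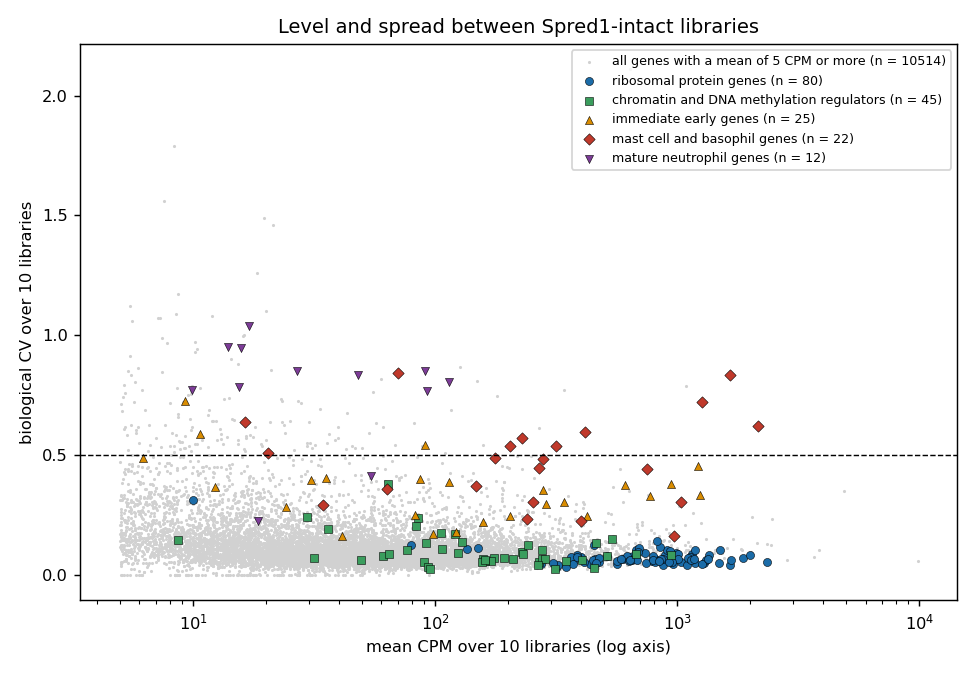
Biological CV against mean CPM (log axis) over the 10 libraries for the 10514 genes with a mean of 5 CPM or more, with 5 gene lists marked and the 0.5 line dashed. Ribosomal protein and chromatin genes lie below the line at all levels, and mast cell and mature neutrophil genes lie across and above it.

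The median biological CV was larger at low level, 0.169 for the 922 genes at 5 to 10 CPM, 0.0981 for the 6959 genes at 10 to 100 CPM, 0.0896 for the 2562 genes at 100 to 1000 CPM and 0.0921 for the 71 genes at 1000 CPM or more. Among these 71 genes, 4 had a CV of 0.5 or more: Cpa3, Tpsb2, Cma1 and Lars2, and Lars2 was named for this count after its values were seen. For genes used as internal references in RT-PCR the median was 0.0994, against 0.0991 for all genes. Eef1a1 (0.0584), Rplp0 (0.0716) and Hsp90ab1 (0.0727) were steadier than Ppia (0.125), Actb (0.126), Gapdh (0.151), B2m (0.173) and Tfrc (0.271). Actb was at 3254 CPM in Spred1 wt 3 and at 2211 to 2506 CPM in the other 9 libraries. Among all genes, 81 had a spread no larger than counting gives, a biological CV of 0. Of these, Ncoa5, a nuclear receptor coactivator gene, had the most reads, at 91.1 to 97.4 CPM, and was named for this after its values were seen.

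**Figure D3:**
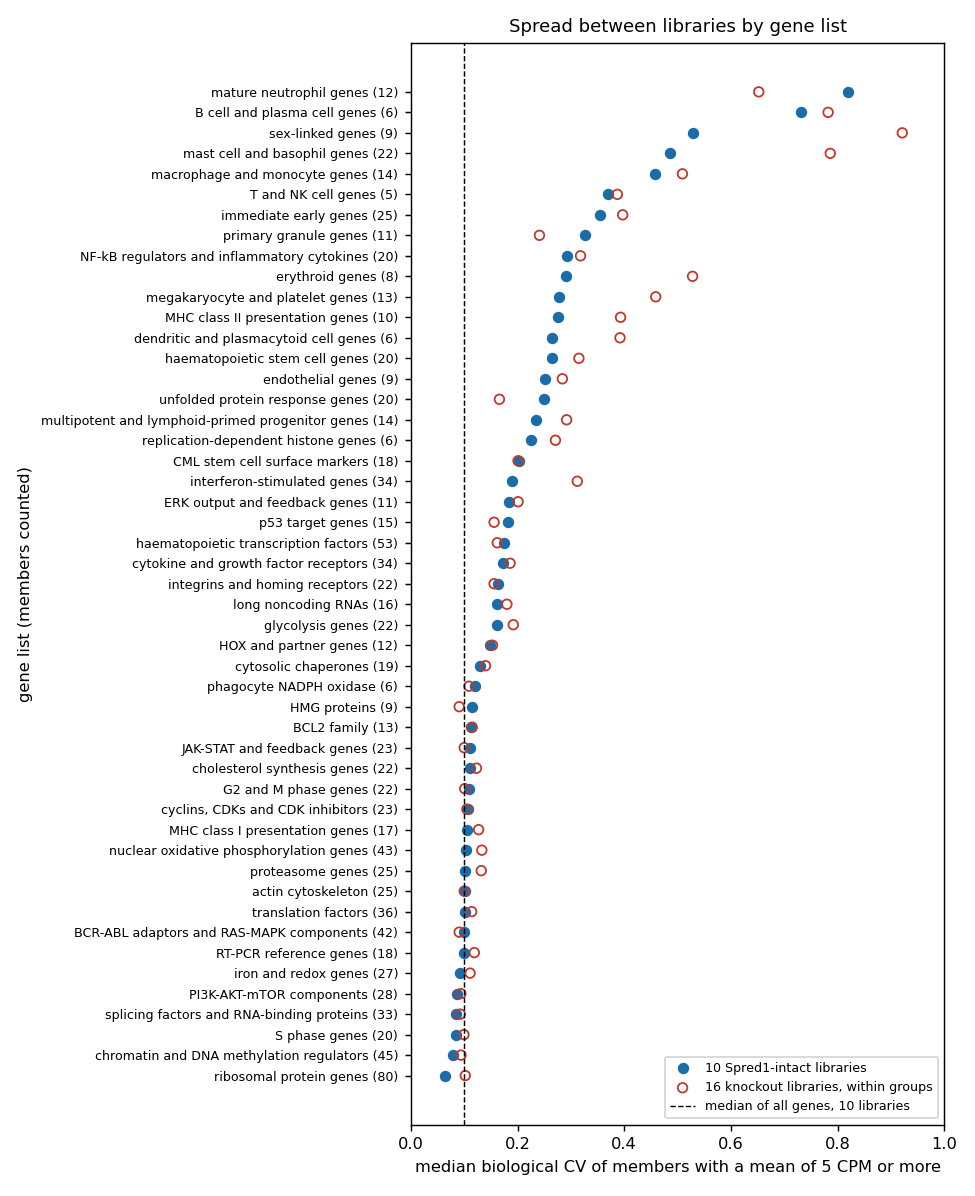
Median biological CV of the members of each gene list with a mean of 5 CPM or more, for the 10 Spred1-intact libraries (filled) and, with group means removed, for the 16 knockout libraries (open), for lists with at least 5 such members. The dashed line is the median of all genes (0.0991), and mature neutrophil, B and plasma cell, mast cell and macrophage lists have the largest medians among the cell type lists.

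The spread seen in the 10 libraries was found again in libraries that were not used to measure it. The 16 knockout libraries of the series (global, HSC and endothelial Spred1 knockout) had a median biological CV of 0.105 after their group means were removed. Of the 186 genes with a CV of 0.5 or more in the Spred1-intact libraries, 149 (80.1%) also had 0.5 or more within the knockout groups, against 2.66% of all 10514 genes. Only 161 of the 186 had a mean of 5 CPM or more in the knockout libraries, so the spread of the rest was read there below that limit. The 2.66% is not matched for level: 69 of the 186 were at 5 to 10 CPM, where 922 of the 10514 genes lay. Sex-linked genes such as Xist (CV 2.11 and 0.967) are among the 149. The 100 most variable genes of either set shared 46 genes, 46% of each list. Across the 10514 genes, Spearman's rho between both CVs was 0.742, a description over genes that are not independent. Kcnip3, which encodes a calcium sensor that binds potassium channels, had a CV of 1.12 in the 10 libraries and 0.189 in the knockout libraries, where its highest value was 1.45 CPM. It had 8.38 to 15.1 CPM in Spred1 wt 2 to 5 and 0.547 to 1.42 CPM in Spred1 wt 1 and all 5 HSC wt libraries.

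A large spread at high level was seen in genes of mast cells and basophils, cells that store proteases in granules and carry the IgE receptor. Of 25 genes in the list, 22 reached 1 CPM in all 10 libraries, and 10 of the 22 with a mean of 5 CPM or more had a CV of 0.5 or more, with a list median of 0.485. The summed level was 5427, 6469, 22550, 14670 and 15480 CPM in Spred1 wt 1 to 5 and 7117, 10280, 9088, 11180 and 7386 CPM in HSC wt 1 to 5. Spred1 wt 3, 4 and 5 were the 3 highest and Spred1 wt 1 and 2 the 2 lowest, so that the HSC wt libraries lay between them. Tpsb2, a tryptase gene, had 435 CPM at the lowest, 1261 at the median and 5068 at the highest. Cpa3, the mast cell carboxypeptidase, had 698, 1794 and 4930 CPM, and Cma1, a chymase gene, had 370, 952 and 3283 CPM. In each of the 3 genes Spred1 wt 3 was the highest and Spred1 wt 1 the lowest library. Mcpt8, a protease of basophils, followed another order, with 144 and 146.5 CPM in HSC wt 1 and 2 and 370 CPM in HSC wt 3. The list holds genes that LSK cells also express, such as Kit, Gata2 and Srgn, and in bulk samples fewer cells of a type and less RNA per cell cannot be told apart. Without Spred1 wt 3 the highest sum was 2.85 times the lowest, against 4.16 times with it, and the list median was 0.412. Il1rl1, the IL-33 receptor of mast cells (283 to 1289 CPM), Fcer1a, the IgE receptor chain (113 to 690.5 CPM), Il2ra, the IL-2 receptor alpha chain (8.22 to 121.5 CPM), and Anpep, an aminopeptidase gene (34.5 to 402 CPM), also had Spred1 wt 1 as the lowest and Spred1 wt 3 as the highest library.

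RefSeq windows were matched for 22 of the 25 genes, and the 200 bases before the start held GATAA or its reverse complement TTATC, the core letters that GATA factors recognise, in 10 of them (45.5%) against 20.6% of all genes with a window. The windows of the 3 members of highest level per kb that have one, other than Kit, Srgn and Gata2, are shown because their levels moved together, with the motif in capitals, on either strand.
Cpa3 (chr3:20242182-20242381, minus strand): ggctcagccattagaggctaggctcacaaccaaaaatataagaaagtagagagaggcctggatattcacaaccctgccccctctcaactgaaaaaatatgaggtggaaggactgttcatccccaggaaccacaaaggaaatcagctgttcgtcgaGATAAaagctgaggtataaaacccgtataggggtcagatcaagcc
Cma1 (chr14:55944676-55944875, minus strand): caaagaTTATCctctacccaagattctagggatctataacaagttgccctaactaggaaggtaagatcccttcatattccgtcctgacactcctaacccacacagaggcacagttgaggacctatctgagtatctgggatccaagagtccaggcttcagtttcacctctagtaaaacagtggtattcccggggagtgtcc
Fcer1a (chr1:173227230-173227429, minus strand): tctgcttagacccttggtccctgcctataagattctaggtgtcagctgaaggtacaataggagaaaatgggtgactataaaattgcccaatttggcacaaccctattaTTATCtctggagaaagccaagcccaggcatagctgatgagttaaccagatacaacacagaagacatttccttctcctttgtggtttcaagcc
Each of the 3 windows held 1 match. A match is a run of letters and was not tested as a binding site.

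Mature neutrophil genes had the largest median spread of the cell type lists (0.82), with 10 of the 12 members at 5 CPM or more at a CV of 0.5 or more. Their summed level was 930.1, 77.7, 398, 247 and 141 CPM in Spred1 wt 1 to 5 and 892, 1027, 449, 903 and 195 CPM in HSC wt 1 to 5, a ratio of 13.2 between the highest and the lowest library. S100a9, which encodes a calcium-binding protein abundant in neutrophils, had 8.59 CPM at the lowest (Spred1 wt 2), 86.3 at the median and 240.2 at the highest (Spred1 wt 1). Ngp, a neutrophil granule gene, had 8.93, 63.9 and 195 CPM and Camp, the cathelicidin gene, 1.57, 8.36 and 55.7 CPM, with the same libraries at both ends. Ly6g, the neutrophil antigen of the lineage cocktail, was at 0 in Spred1 wt 2 and at 2.75 CPM in HSC wt 1, the highest library. Mpo, Elane, Prtn3 and Ctsg, primary granule genes that granulocyte-monocyte precursors express before maturation, were not high in the same libraries throughout. In HSC wt 1 and 2, where 11 and 12 of the 12 mature neutrophil members lay above their own means, 10 and 11 of the 11 primary granule members lay below theirs. In HSC wt 4, however, 12 of 12 and 10 of 11 members lay above. The primary granule list summed to 6270 CPM in HSC wt 1 and to 15870 CPM in Spred1 wt 4. Elane, the neutrophil elastase gene, had 268 CPM at the lowest, 628 at the median and 1046 at the highest, and Prtn3 431, 734 and 1239 CPM.

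The unfolded protein response genes, which encode chaperones of the endoplasmic reticulum and factors and targets of the stress response, had their ends in the same libraries as the primary granule genes. Their sum was lowest in HSC wt 1 (4907 CPM) and highest in Spred1 wt 4 (10400 CPM). All 20 members at 5 CPM or more lay above their own mean in Spred1 wt 4, and 19 of 20 lay below it in HSC wt 1. Hspa5, the chaperone BiP, had 762 CPM at the lowest, 1164 at the median and 1794 at the highest, and Hsp90b1 had 581, 1024 and 1581 CPM. Asns, the asparagine synthetase gene, was the most variable member (0.549), at 72.3 CPM in Spred1 wt 4 and 16.7 to 35.8 CPM in the other 9 libraries, and its CV was 0.271 without the highest library. Calr is in both lists and had 2868 CPM in Spred1 wt 4 and 1341 CPM in HSC wt 1. HSC wt 1 and Spred1 wt 4 were also the lowest and the highest library for the sums of other lists. Among these were cytosolic chaperones (10990 and 14950 CPM), proteasome genes (2938 and 3822 CPM) and MHC class I presentation genes (5849 and 8298 CPM). The MHC class I list also holds Calr.

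The summed haematopoietic stem cell list was lowest in Spred1 wt 4 (1498 CPM) and highest in HSC wt 1 (2134 CPM), with a median CV of 0.264. By members, 19 of 20 lay above their own mean in HSC wt 1, while those below it were 13 of 20 in Spred1 wt 4, 17 in HSC wt 4 and 18 in HSC wt 5. The multipotent and lymphoid-primed progenitor list was also lowest in Spred1 wt 4 (1829 CPM) but highest in Spred1 wt 2 (3006 CPM). Hlf, a transcription factor of stem cells, had 113 CPM at the lowest (Spred1 wt 4), 189 at the median and 322 at the highest (HSC wt 1). Meis1, a HOX cofactor, had 127, 180.5 and 254 CPM, with the same libraries at both ends. Procr, the stem cell surface receptor EPCR, was at 9.98 to 32.8 CPM and highest in Spred1 wt 1. Cd34, a sialomucin of progenitors, had 298.9 CPM per kb (203 to 374) and was also lowest in Spred1 wt 4. Flt3, the receptor that marks multipotent progenitors, had 104 CPM per kb and ranged from 64.9 (Spred1 wt 4) to 141 CPM per kb (Spred1 wt 2). Dntt, the terminal transferase of lymphoid priming, stood at 401 and 333 CPM in Spred1 wt 1 and 2 and at 52.5 to 142 CPM in the other 8 libraries. The endothelial list, which shares genes with stem cells, was lowest in Spred1 wt 4 (365 CPM) and highest in HSC wt 1 (563 CPM), with Pecam1 at 38.8 and Egfl7 at 31.1 CPM per kb. Of the stromal and osteolineage genes, 3 of 20 reached 1 CPM in all 10 libraries.

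**Figure D4:**
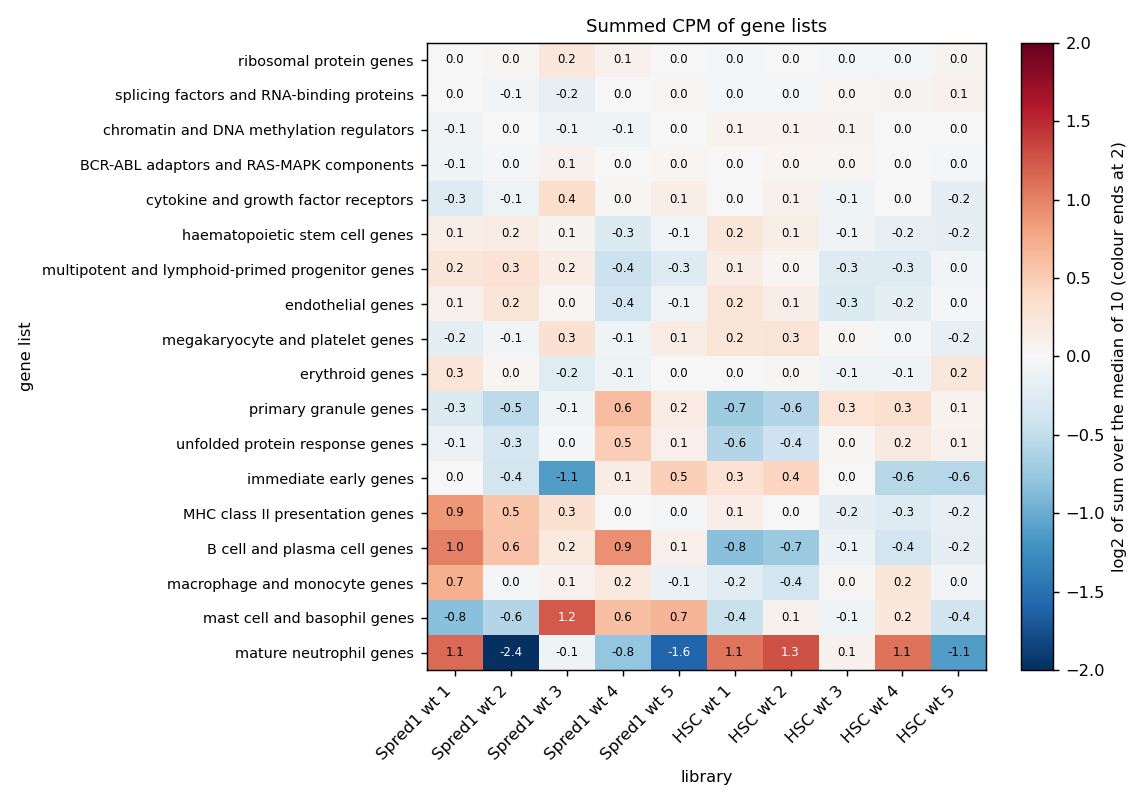
Summed CPM of 18 gene lists in each of the 10 libraries, as log2 of the sum over the median of the 10 (colours end at 2). Spred1 wt 3 is highest for mast cell genes and lowest for immediate early genes, Spred1 wt 4 is highest for primary granule genes and lowest for stem cell genes, and HSC wt 1 is lowest for primary granule genes and highest for stem cell genes.

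Transcription factors varied less than cell type genes. The 53 haematopoietic factors at 5 CPM or more had a median CV of 0.174, and 3 of them had 0.5 or more. Lmo2, a bridging factor of stem cell complexes, was highest at 226 CPM per kb (160 to 283), followed by Myb (191, 149 to 222), Myc (139, 100.2 to 170), Gata2 (120, 87 to 164), Etv6 (99.85) and Lyl1 (94.6 CPM per kb). The ranges of Lmo2 and Myb overlapped, as did those of Myc and Gata2. Lyl1 was the steadiest of these 6, at a CV of 0.0611. The most variable factors were Irf4 (0.781), Ikzf3 (0.643) and Gata3 (0.509), factors of lymphoid and plasma cells. Gata3 had 39 and 42.6 CPM in Spred1 wt 4 and 5 and 13.1 to 24.3 CPM elsewhere, and Ikzf3 was highest in the same pair of libraries. In the HOX list, Meis1 (31.8 CPM per kb), Pbx2 (25.95) and Hoxa9 (24.8) led, Hoxa7 followed at 11.1 CPM per kb, and 9 of 42 genes had no read in any of the 10 libraries: Hoxa11, Hoxa13, Hoxb13, Hoxc8, Hoxd1, Hoxd3, Hoxd9, Hoxd10 and Hoxd12. Pbx2 had a CV of 0.0263.

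Among cytokine receptors, Kit was followed by Il1rl1 (106 CPM per kb, 40 to 182), Flt3 (104), the interferon-gamma receptor chain Ifngr1 (85), Csf2rb (77.1), the shared beta chain of the IL-3, IL-5 and GM-CSF receptors, and Il2rg (69.5 CPM per kb). Il1rl1 and Flt3 did not differ beyond their spread. Il2rg was steady (0.109), while Csf2rb2, the mouse IL-3 receptor beta chain, had a CV of 0.45 and Fgfr1 0.53, which fell to 0.326 without Spred1 wt 3, where it was highest (116 CPM). Of the surface markers described for CML stem cells, Fcer1a (308 CPM per kb) and Cd34 led, followed by Cd47 (184 CPM per kb, 170.2 to 198.8), the "do not eat me" signal, with a CV of 0.0559. Fcer1a is also in the mast cell and basophil list and, like Tpsb2, Cpa3 and Cma1, was lowest in Spred1 wt 1 and highest in Spred1 wt 3. Il2ra, which encodes CD25, had a CV of 0.762.

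Immediate early genes, which are transcribed within minutes of a stimulus such as cell handling, had a median CV of 0.354 and moved together. Their sum was 7531, 5819, 3473, 8315 and 10460 CPM in Spred1 wt 1 to 5 and 9118, 10150, 7474, 5086 and 5071 CPM in HSC wt 1 to 5. All 25 members at 5 CPM or more lay above their own mean in Spred1 wt 4 and in Spred1 wt 5, while 21 of 25 in Spred1 wt 3, 23 in HSC wt 4 and 24 in HSC wt 5 lay below it. Fos had 504 CPM at the lowest, 886 at the median and 1443 at the highest, and Jun had 458, 1279 and 1836 CPM. Both encode subunits of the AP-1 transcription factor, and both were lowest in Spred1 wt 3 and highest in HSC wt 2. On the per-kb scale Fos (453) and Zfp36 (440, an RNA-binding regulator of cytokine transcripts) were the highest members, followed by Jun (389) and Fosb (324 CPM per kb). Egr3 was among the 4 members that went against the rest in Spred1 wt 3, at 17.3 CPM against a median of 7.57. Without Spred1 wt 3 the ratio of the highest to the lowest sum fell from 3.01 to 2.06. The part of sample handling in these levels was not tested.

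Several genes stood far apart in a single library. Il1b, the inflammatory cytokine interleukin 1 beta, had 110 CPM in Spred1 wt 3 and 4.8 to 16 CPM in the other 9 libraries, and its CV was 1.46 with that library and 0.313 without it. Spred1 wt 1 was the highest library for genes of tissue macrophages: Vcam1 at 83 CPM against 3.11 to 18.2, the iron exporter Slc40a1 at 48.1 against 3.89 to 11.1, and the heme oxygenase Hmox1 at 28.4 against 2.88 to 9.27 CPM. The complement gene C1qa, read here for its outlying value and not by its rank, had 13.7 CPM there and 0.64 to 3.39 elsewhere. The MHC class II genes H2-Aa (40.1 against 8.43 to 20.6 CPM) and H2-Eb1 (23.6 against 4.87 to 12.7 CPM) were highest in Spred1 wt 1 too. All 10 members of their list at 5 CPM or more lay above their own mean in Spred1 wt 1 and also in Spred1 wt 2. The plasma cell joining chain Jchain was highest in Spred1 wt 1 but less far apart (445 against 51.1 to 325 CPM). The B cell and plasma cell list summed to 753.6 CPM in Spred1 wt 1 and to 699.8 CPM in Spred1 wt 4. Of the 186 variable genes, 74 fell under a CV of 0.5 once their own highest library was left out.

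Lars2 and Mir6236 kept a near-constant ratio while both varied. Lars2, the mitochondrial leucyl-tRNA synthetase gene, had 293 CPM at the lowest (Spred1 wt 3), 825 at the median and 3049 at the highest (HSC wt 2), and Mir6236 had 99.6 CPM at the lowest (Spred1 wt 1), 288 at the median and 937 at the highest (HSC wt 2). They lie at separate places of chromosome 9 (Mir6236 from 110281287, Lars2 from 123366940, mm10). The ratio of Lars2 to Mir6236 was 2.69 to 3.83 in the 10 libraries and 2.9 to 3.89 in the 16 knockout libraries, although the level of Lars2 differed by 10.4 times between the ends. Lars2 was named here after its values were seen. Whether reads of another transcript are counted at both places was not tested.

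A small set of genes had 2 separate levels among the libraries. In the order of the 10 libraries, 13 genes whose highest library had at least 5 CPM showed a gap of 4-fold or more between neighbours, on the scale of CPM plus 0.25, with at least 2 libraries on each side. This rule and these genes were chosen after the data were seen. Xist and the Y-linked Ddx3y, Eif2s3y, Kdm5d and Uty separated HSC wt 4 and 5 from the rest. Eno1b had 28.6 and 31.3 CPM in the same libraries and 1.15 to 2.99 CPM in the other 8. The table lists Eno1b over chromosome 4 from 48045335 to 150248873 (mm10), an interval that contains many other genes, so its reads are uncertain. Slc15a2, a peptide transporter gene on chromosome 16, had 0.19 and 0.094 CPM in HSC wt 1 and 3 and 4.47 to 37.2 CPM in the other 8 libraries.

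The remaining genes of the set, besides Kcnip3, set Spred1 wt 4 and 5 apart, and most of them lay on chromosome 6. Klra17, a gene of the Ly49 receptor family, had 13.7 and 14.4 CPM in Spred1 wt 4 and 5. It had at most 0.587 CPM in the other 8 libraries and at most 0.158 CPM in the 16 knockout libraries. Its relative Klra7 had 6.11 and 5.47 against at most 0.107 CPM, and Styk1, a kinase-like gene, 4.23 and 6.26 against at most 0.453 CPM. Bcat1, the cytosolic branched-chain aminotransferase, had 88.2 and 58.1 CPM against 2.75 to 12.7 CPM. These 4 genes lie between 129831154 and 145076157 of chromosome 6 (mm10). 2610507I01Rik, on chromosome 11, went the other way, at 1.37 and 0.725 CPM against 22.5 to 45.6 CPM. With a gap of 2-fold or more, 77 genes qualified, and 26 of them had Spred1 wt 4 and 5 alone on the smaller side. Of these 26, 11 (42.3%) were on chromosome 6, between 48764464 and 145076157, against 0 of the other 51 genes and 4.98% of all 11002 genes whose highest library had at least 5 CPM. The T and NK cell list, whose sum was highest in Spred1 wt 5 (298 CPM) and lowest in Spred1 wt 2 (192 CPM), had 9 of 22 members at 1 CPM or more in all 10 libraries. Its sum was 192 to 298 CPM in Spred1 wt and 194 to 226 CPM in HSC wt. Of its 5 members at 5 CPM or more, 3 lay above their own mean in Spred1 wt 4, in Spred1 wt 5 and in HSC wt 2. Bcl11b, a transcription factor of T cells, had 12.2 and 11.6 CPM in Spred1 wt 4 and 5 and 0.984 to 3.16 CPM in the other 8 libraries. Klrb1c had 8.39 and 12.7 against 1.29 to 3.82 CPM. Both are among the 26 genes above, and Klrb1c is among the 11 of them on chromosome 6, whereas Bcl11b is on chromosome 12. Gata3 was high in the same pair, as given above, whereas the T cell receptor chains Cd3d and Cd3e were at or under 0.364 CPM in all 10. The part of T and NK cells in this pattern was not tested.

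**Figure D5:**
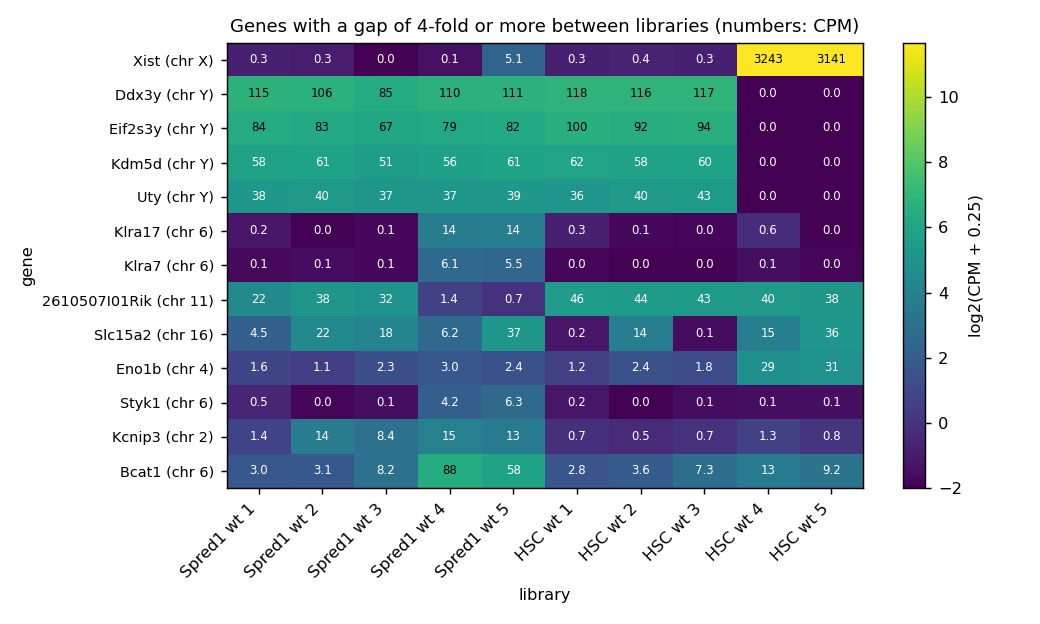
Level of the 13 genes with a gap of 4-fold or more between neighbouring libraries, with CPM written in each cell and coloured as log2(CPM + 0.25). HSC wt 4 and 5 differ from the rest in Xist, the Y-linked genes and Eno1b, and Spred1 wt 4 and 5 in Klra17, Klra7, Styk1, Bcat1 and 2610507I01Rik.

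The main axes of variation between the libraries gathered these patterns. The first principal component of the 10514 genes held 36.1% of the variance, with Spred1 wt 4 (score 21.9) and Spred1 wt 3 (17.4) at one end and HSC wt 1 (-23.2) and Spred1 wt 1 (-22) at the other. Its 15 genes at the high end included Ptprg, Bcat1, Il2ra, Igfbp5, Tpsab1 and Calca, and those at the low end Retnlg, Camp, Cmah, Alox15, Vcam1 and Mcpt2. Xist at the high end and the Y-linked Ddx3y, Eif2s3y, Kdm5d and Uty at the low end also belonged to them. Tpsab1, a tryptase gene, ranged from 13.1 CPM (Spred1 wt 1) to 209 CPM (Spred1 wt 3). The second component held 22.5% and set HSC wt 5 (-23.9) and HSC wt 4 (-21.2) apart from the other 8 libraries, with Xist and Eno1b at its low end and the Y-linked genes at its high end.

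As a check on pooling, both groups were compared by edgeR's quasi-likelihood test with Benjamini-Hochberg adjustment. Of 12865 genes tested, 1 (0.00777%) passed an adjusted p of 0.05 and 1008 had an unadjusted p under 0.05. The gene was St6gal1, a sialyltransferase, named here because it was the only one. It had 21.4, 21.5, 22.9, 19.1 and 20.1 CPM in Spred1 wt 1 to 5 and 12.1, 12.8, 11.6, 11.1 and 11.1 CPM in HSC wt 1 to 5, with no overlap. The log2 difference of HSC wt from Spred1 wt was -0.84 (SE 0.0845, edgeR adjusted p = 0.00508). The median biological CV within groups was 0.0982, close to the 0.0991 of the pooled libraries, and 135 genes had 0.5 or more once group means were removed. The call of St6gal1 was lost in the fit of all 26 libraries (-0.84, SE 0.231, edgeR adjusted p = 0.357) and in the 8 libraries with Y-linked transcripts (-0.79, SE 0.103, edgeR adjusted p = 0.221). DESeq2 called 114 genes and the edgeR fit without Spred1 wt 1 called 19, so that the count depends on the tool and on that library.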

How the data were processed

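Per the submitters' processing notes, the tools were edgeR 3.28.1, HTSeq 0.6.0, STAR 2.6.0 and, for reads, bcl2fastq 2.18.0.12, and the build was mm10. The gene annotation, the strand setting and the library kit are not given in the sources used here, so overlapping and near-identical genes are uncertain. The authors deposited raw read counts per gene and a gene length in kb, whose derivation is not stated. Its 26 count columns were all matched to titles, and no pair was identical.

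From the counts, CPM were computed with TMM factors of the 10 libraries (edgeR 4.0.16, limma 3.58.1 and DESeq2 1.42.0 in R 4.3.3; Python 3.11.15). The biological CV is the square root of the squared CV minus the mean of 1 over the expected count, and 0 where negative. Genes were named by rank in level and spread, by place in 52 gene lists and by principal component loading, and lists count members with a mean of 5 CPM or more for spread. Members and lists were chosen with earlier results of these data known. The scripts were tested on simulated data. Alternatives were other scaling factors, other filters, each library left out, each group alone, tagwise dispersion, DESeq2 and limma voom. CVs over 10 libraries are imprecise, and low counts limit genes under 5 CPM. P-values measure only the spread between these samples. Some named genes are not reported here.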

Additional observations from a re-analysis of the deposited data

Results flagged for a closer look

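Values were flagged where the highest of the 10 libraries stood so far from its neighbour that the gap, as a share of the whole range, exceeded Dixon's critical value (which by chance flags about 1 in 20 sets). Of 52 summed gene lists 6 were flagged, and of 33 genes 5. These counts cannot be set against that rate. All sets share the same 10 libraries, and some of the genes, such as C1qa, were chosen for their outlying values. Spred1 wt 3 was the outlying library for the summed levels of ribosomal protein genes (74300 CPM), RT-PCR reference genes (28800 CPM), actin cytoskeleton genes (17900 CPM), CML stem cell surface markers (3890 CPM) and interferon-stimulated genes (3320 CPM). Of the interferon-stimulated genes, 18 of 34 lay above their own mean in Spred1 wt 3, against 28 in Spred1 wt 1 and 30 in Spred1 wt 2. Of the CML stem cell surface markers, a list that shares Fcer1a with the mast cell list, 11 of 18 lay above in Spred1 wt 3, against 12 in HSC wt 2. Spred1 wt 3 was also outlying for Eef1a1 (11400 CPM), Tpsb2 (5070 CPM), Spred1 (149 CPM) and Il1b (110 CPM). Spred1 wt 1 was outlying for the summed macrophage and monocyte genes (996 CPM) and for C1qa (13.7 CPM).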

How the results depend on the processing

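The number of genes at 1 CPM in all libraries was 11522 to 11564 with each library left out, the number of genes that held 50% of reads 1163 to 1177, the median biological CV 0.089 to 0.102 and the number of genes with a CV of 0.5 or more 149 to 206. On the per-kb scale 567 genes held 50% of the signal. The median was 0.118 with edgeR's tagwise dispersion, and 454 genes had a CV of 0.5 or more when the minimum mean was 1 CPM. The comparison of HSC wt with Spred1 wt, 1 gene in the edgeR fit, gave 3 genes with no filter on low counts, 4 in a fit of all 26 libraries (none of them St6gal1), 0 in the libraries with Y-linked transcripts, 114 by DESeq2, 15 by limma voom, and 1 to 19 with each library left out, 19 of them without Spred1 wt 1, 3 without Spred1 wt 5 and 2 without Spred1 wt 2 or HSC wt 2. The cause was not tested. Of 462 mean levels of 33 genes under other scaling factors, the median in place of the mean or a library left out, 11 moved by more than 1.5 times, in 5 genes. Il1b fell from 21.4 to 11.6 CPM without Spred1 wt 3, C1qa from 2.83 to 1.61 CPM without Spred1 wt 1, Bcat1 from 19.6 to 12 CPM without Spred1 wt 4, Eno1b from 7.57 to 4.94 CPM without HSC wt 5, and Klra17 from 2.93 to 1.74 or 1.66 CPM without Spred1 wt 4 or 5. Their medians over the 10 libraries were 12.8, 1.23, 7.75, 2.32 and 0.127 CPM. The median CV of the lists without Spred1 wt 3 and the 2-fold gap were chosen after seeing the data. No paired analysis was possible because the replicate numbers follow accession order and pair no samples.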
